A study of Mus musculus with 8 samples.

Results

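The 10 genes described here carry out antigen presentation on major histocompatibility complex (MHC) molecules. For class II they are the chain genes H2-Aa, H2-Ab1 and H2-Eb1, the invariant chain gene Cd74, the peptide exchange genes H2-DMa and H2-DMb1 and the activator gene Ciita, and for class I they are B2m, H2-K1 and H2-D1. They were chosen by name, and their probes were found through the RefSeq accessions of the array's design. All 10 had a probe, with 15 probes among them, out of 22909 genes with a symbol on the array, and all 10 were among the 15744 genes tested. RNA of heart ventricle was hybridised to 8 single-colour Agilent arrays on 1 slide, in 4 groups of 2 arrays. The groups were wild type (WT) mice and mice homozygous for Tnnt2 ΔK210 (KI), a deletion in the gene for cardiac troponin T that serves as a model of inherited dilated cardiomyopathy, each at birth (0 days) and at 1 week of age. Ventricles of 3 animals were pooled, and 100 ng of RNA was labelled. The sample fields name ventricle, and the design text names left ventricle. Whether 2 arrays of a group stand for separate pools is not given, so errors and p-values measure the spread between arrays, which may be technical.

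Class I molecules consist of a heavy chain, such as those encoded by H2-K1 and H2-D1, and beta-2 microglobulin, the product of B2m. They are made by nearly all nucleated cells and show peptides cut by the proteasome and carried into the endoplasmic reticulum by the Tap transporter. Class II molecules pair an alpha chain (H2-Aa) with a beta chain (H2-Ab1), or an E alpha chain with the E beta chain encoded by H2-Eb1. They are made mainly by dendritic cells, B cells and macrophages. Cd74 encodes the invariant chain, which guides class II molecules to the endosome and fills their groove, and H2-DMa and H2-DMb1 encode the 2 chains of the H2-DM protein, which swaps the last piece of the invariant chain for an antigenic peptide. Ciita is the coactivator on which transcription of most class II genes depends.

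Before the results, a disagreement between the deposited files has to be stated. Each column of the value table was set against the scanner files, and 3 of the 4 columns at 1 week held the values of another sample's file. The 4 arrays at 1 week are named A, B, C and D here. By the value table, A and D were WT and B and C were KI, and this record was the main one. By the scanner files, A and B were WT and C and D were KI, and its values are given beside the main ones. Both records give the birth arrays alike. Age and slide row cannot be told apart, since row 1 held the birth arrays and row 2 the others. Genotype and slide column cannot be told apart at birth, where WT had columns 1 and 2 and KI columns 3 and 4. The same holds at 1 week by the scanner files, since A and B had columns 1 and 2 and C and D columns 3 and 4.

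The share of probes well above background ran from 58.9% to 63.1%, and no member probe was saturated. Of the 10 genes, 8 were well above background on all 8 arrays. H2-Aa was well above background on arrays A, B and C alone, and Ciita on arrays A, B and D alone. All 8 ventricular cardiomyocyte markers were well above background on every array. Atrial marker signal was lowest on array A, where the summed level was 62.6 times the array's 75th percentile of signal, against 400.3 to 580.5 on the other arrays. In whole tissue, fewer cells of a type and less RNA per cell cannot be told apart.

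The stretches in front of the start sites are shown for 6 of the genes, because short control sequences of class II and class I genes are known there. RefSeq promoter sequences of build GRCm38.p6 were at hand for 7 of the 10 genes. All lie on chromosome 17 within the MHC, except B2m on chromosome 2. The class II genes come first, each from 100 to 30 bases before the start site, 5′ to 3′ on the strand of the gene. The capitals mark the X box AACTGATGATG, the cyclic AMP response element TGACGTCA and the Y box TGATTGG or its core ATTGG, on either strand.
H2-Aa, chr17:34287853-34287923, minus strand: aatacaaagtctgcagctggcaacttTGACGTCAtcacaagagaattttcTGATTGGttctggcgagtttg
H2-Eb1, chr17:34305767-34305837, plus strand: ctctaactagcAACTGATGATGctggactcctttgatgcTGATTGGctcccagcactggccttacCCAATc
H2-DMb1, chr17:34153091-34153161, plus strand: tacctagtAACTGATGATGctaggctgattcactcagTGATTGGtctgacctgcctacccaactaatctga

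H2-DMa, the other class II gene with a promoter at hand, is not shown: of these words it held ATTGG alone, 198 to 194 bases before its second listed start. The 3 shown hold TGATTGG, a word found in the 250 bases before the start of 7.23% of all 32851 RefSeq promoters on either strand. It lay 50 to 44 bases before the start of H2-Aa, 61 to 55 before H2-Eb1 and 63 to 57 before H2-DMb1. AACTGATGATG, a word read from H2-Eb1, stood further upstream in H2-Eb1 and H2-DMb1 and was in 0.0304% of promoters. The word TGACGTCA, read from H2-Aa 74 to 67 bases before its start, was in 1.55% of promoters. The core ATTGG, which is part of TGATTGG, was in 33.8%. These words were chosen after the sequences were seen, and a match describes letters, not binding.

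For class I, the windows run from 130 to 1 bases before the start site in H2-K1 (the first of its 2 listed starts), from 180 to 45 in H2-D1 and from 150 to 30 in B2m. Capitals mark the kappa B element GGGGATTCCCC, the interferon response word TTTCNNTTC and ATTGG or TGATTGG, on either strand.
H2-K1, chr17:34000348-34000477, minus strand: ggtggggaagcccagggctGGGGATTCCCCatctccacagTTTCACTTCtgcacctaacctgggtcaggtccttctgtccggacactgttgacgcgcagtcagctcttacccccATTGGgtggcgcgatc
H2-D1, chr17:35262914-35263049, plus strand: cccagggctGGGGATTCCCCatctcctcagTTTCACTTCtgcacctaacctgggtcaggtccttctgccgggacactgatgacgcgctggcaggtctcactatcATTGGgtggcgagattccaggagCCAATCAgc
B2m, chr2:122147537-122147657, plus strand: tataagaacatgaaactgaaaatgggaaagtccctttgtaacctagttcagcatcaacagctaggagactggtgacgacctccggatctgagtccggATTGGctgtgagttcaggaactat

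H2-K1 and H2-D1 share GGGGATTCCCC, read from H2-K1, followed by TTTCNNTTC, words found in 0.0304% and 6.31% of all promoters. Of these words, ATTGG alone was in the B2m window. The class I heavy chain genes are near-identical copies in much of their sequence, so a probe of one class I heavy chain gene may also bind the RNA of others, and values of H2-K1 and H2-D1 are uncertain in that respect.

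Between birth and 1 week 6 of the 7 class II genes rose, and B2m and H2-K1 did not pass the test. Averaged over both genotypes, which gives the same difference whichever record of the 1-week arrays is used, 7 of the 10 genes were higher at 1 week by limma with an adjusted p under 0.05. They were 6 of the 7 class II genes (H2-Aa, H2-Ab1, H2-Eb1, Cd74, H2-DMb1 and Ciita) and H2-D1. Of all genes tested, 14.8% were called higher. The same 7 genes were called in the scanner-file record, where 15.0% of all genes were. All 4 arrays at 1 week lay above all 4 at birth for 6 of the 10 genes, against 16.2% of all genes. H2-Aa and Ciita are among both counts. Neither was well above background at birth, and each was tested only because of its 1-week signal. Their calls and places in these counts are therefore not independent of the filter. The median difference was 1.17 on the log2 scale for the class II genes, 0.16 for the class I genes and -0.03 for all genes tested. This averaged comparison was added after the disagreement between the records had been seen. All levels below are log2 signals minus the array's 75th percentile of non-control probes, and they are compared between arrays, never between genes.

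**Figure D1:**
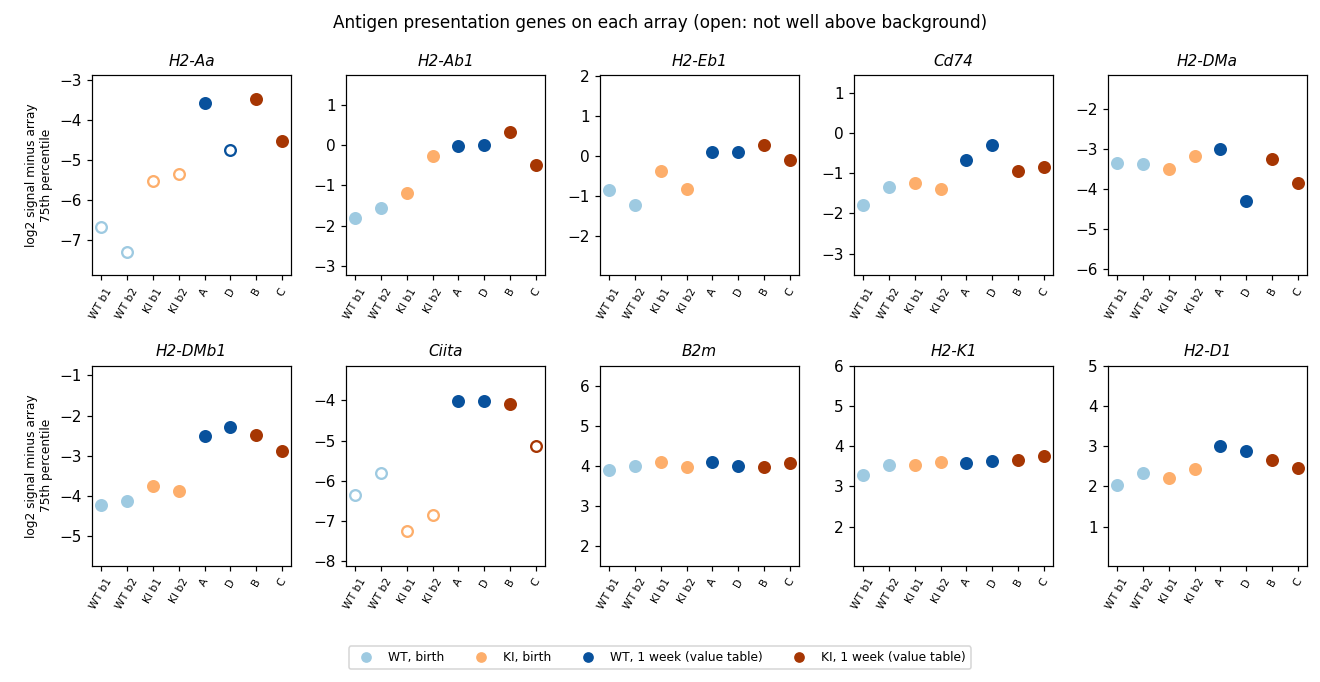
Level of each of the 10 genes on each of the 8 arrays, as log2 signal minus the array's 75th percentile (vertical axis, the same span of log2 units in every panel). Points are single arrays, coloured by group in the value-table record, and open points were not well above background. Arrays A to D stand above the birth arrays for H2-Aa, H2-Eb1, Cd74, H2-DMb1, Ciita and H2-D1, and B2m lies flat between 3.91 and 4.11.

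Among the class II chains, H2-Ab1 was at -1.82 and -1.57 on the WT birth arrays and -1.19 and -0.26 on the KI birth arrays. At 1 week it was at -0.01 on array A, 0.33 on B, -0.50 on C and 0.01 on D. The second KI birth array lay above array C, so the ages overlapped by that array. The averaged age difference was 1.17 ± 0.25 (limma standard error, as after every ± here), a 2.25-fold rise (adjusted p = 0.0153). H2-Ab1 had 3 further probes, whose averaged age differences were 0.97, 1.27 and 1.04, so the 4 probes ran the same way.

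**Figure D2:**
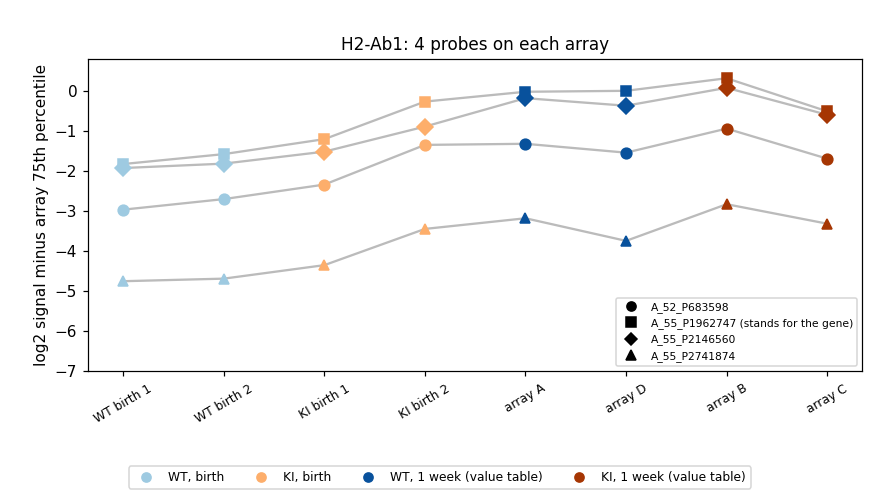
The 4 probes of H2-Ab1 on each array, as log2 signal minus the array's 75th percentile. Each symbol is a probe, grey lines join the points of a probe and have no order in time, and colours give the value-table group. Every probe is lowest on the WT birth arrays and highest on array B, and the second KI birth array stands above the first on each.

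H2-Eb1 was at -0.84 and -1.23 on the WT birth arrays and -0.37 and -0.84 on the KI birth arrays. At 1 week it was at 0.10, 0.26, -0.11 and 0.10 on A, B, C and D. No birth array reached the 1-week arrays, and the rise was 0.91 ± 0.15, or 1.88-fold (limma adjusted p = 0.0058).

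H2-Aa was not well above background on any birth array, where it was measured at -6.67 and -7.29 in WT and at -5.51 and -5.34 in KI. At 1 week it was at -3.58 on array A, -3.47 on B, -4.52 on C and -4.74 on D, the last not well above background. Because the birth level is a bound, the rise is given as at least 1.94-fold, the mean of the 1-week arrays against the higher of the birth signal and the lowest signal well above background on each birth array. This bound is on the scale of the processed signal, and 3 of the 4 arrays at 1 week measured the gene. The limma adjusted p was 0.0040, and with normexp background the difference was 0.44, which is below the bound.

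Cd74 was at -1.79 and -1.33 on the WT birth arrays and -1.25 and -1.40 on the KI birth arrays. At 1 week it was at -0.67, -0.93, -0.83 and -0.30 on A to D. The ages did not overlap, array D was the highest, and the rise was 0.76 ± 0.14, or 1.69-fold (limma adjusted p = 0.0084).

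The H2-DM genes differed from each other. H2-DMb1, the beta chain, was at -4.22 and -4.14 on the WT birth arrays, -3.76 and -3.89 on the KI birth arrays and at -2.50, -2.48, -2.89 and -2.29 on A to D. The ages were clear of each other, and the rise was 1.46 ± 0.12, or 2.76-fold (limma adjusted p = 0.00037), with the smallest p of the 10 genes in this comparison. H2-DMa, the alpha chain, was at -3.35 and -3.37 on the WT birth arrays and -3.48 and -3.18 on the KI birth arrays. At 1 week it was at -3.0, -3.24, -3.84 and -4.30 on A to D. The 1-week arrays stood on both sides of the birth arrays, and its averaged age difference of -0.25 ± 0.29 did not pass the test (limma adjusted p = 0.55).

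Ciita was not well above background at birth, with signals of -6.35 and -5.82 in WT and -7.25 and -6.85 in KI. At 1 week it was at -4.01 on array A, -4.08 on B, -5.13 on C and -4.01 on D, and C was not well above background. The rise was at least 1.65-fold by the same bound, with 3 of 4 arrays measuring the gene (limma adjusted p = 0.0010), and the normexp difference of 0.33 is again below it. A second Ciita probe was not well above background on any array, between -7.14 and -6.38, and gives no level.

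Of the class I genes, B2m was at 3.91 and 4.0 on the WT birth arrays, 4.11 and 3.97 on the KI birth arrays and at 4.10, 3.98, 4.09 and 4.01 on A to D. All 8 values lay within 0.20 of each other, and the age difference was 0.05 ± 0.09 (limma adjusted p = 0.72). H2-K1 was at 3.28 and 3.54 on the WT birth arrays, 3.54 and 3.60 on the KI birth arrays and at 3.59, 3.65, 3.75 and 3.63 on A to D. Its difference of 0.16 ± 0.10 did not pass the test (limma adjusted p = 0.23), and a second H2-K1 probe gave 0.33. H2-D1 was at 2.02 and 2.34 on the WT birth arrays, 2.21 and 2.43 on the KI birth arrays and at 3.0, 2.65, 2.47 and 2.89 on A to D. The lowest 1-week array lay just above the highest birth array, and the rise was 0.50 ± 0.11, or 1.42-fold (limma adjusted p = 0.0182). In the scanner-file record, H2-D1 had an adjusted p of 0.0444, the one nearest to the threshold among the 7.

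The sizes of the rises of the dim genes depend on the background correction. With normexp correction of the median spot signal, the averaged differences were 0.49 for H2-DMb1, 0.44 for H2-Aa, 0.33 for Ciita and 0.94 for H2-Ab1, and the same 7 genes were called. Without the first WT birth array, 5 of the 7 were called, and H2-Ab1 (adjusted p = 0.0516) and H2-D1 (0.0581) were not. H2-D1 was also not called without array B (adjusted p = 0.0676) or without the first KI birth array (0.0622). Without array A, H2-DMa was called lower (-0.57, limma adjusted p = 0.049).

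Taken by genotype, the age comparison in WT called 1577 of 15744 genes higher in the value-table record (19.0% in either direction and 8.96% lower). Of the 10 genes, 7 were called higher. They were the 7 of the averaged comparison, and all arrays at 1 week lay above both at birth for 9 of the 10 genes, all but H2-DMa, against 29.1% of all genes. H2-Aa and Ciita are again among them through a filter passed at 1 week alone. H2-DMb1 rose by 1.78 ± 0.17 (limma adjusted p = 0.0017), H2-Ab1 by 1.70 ± 0.36 (0.0208), H2-Eb1 by 1.14 ± 0.22 (0.0150), Cd74 by 1.07 ± 0.20 (0.0133) and H2-D1 by 0.76 ± 0.16 (0.0209). On the processed-signal scale H2-Aa rose at least 1.67-fold (adjusted p = 0.0090), measured on 1 of the 2 arrays at 1 week, and Ciita at least 1.85-fold (0.0097), measured on both. With normexp background the differences were smaller than these bounds, at 0.52 and 0.37. In the scanner-file record, 5 genes were called higher, against 6.98% of all genes. Cd74 (0.76 ± 0.23, adjusted p = 0.0812) and H2-D1 (0.64 ± 0.21, 0.0945) were not among them, and H2-Aa was at least 2.59-fold higher (adjusted p = 0.00082). The calls rested on few arrays: 3 remained without array D, 3 without the first WT birth array and 4 without the second. H2-DMb1 was called in all 3 of these fits.

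In KI, 2 genes passed in the value-table record, where 5.86% of all genes were called higher. Of these, Ciita was tested only because of its 1-week signal, so its call is not independent of the filter. Ciita was at least 1.47-fold higher at 1 week on the processed-signal scale, measured on 1 of the 2 arrays (limma adjusted p = 0.0073; 0.30 with normexp, below the bound), and H2-DMb1 rose by 1.14 ± 0.17 (0.0086). H2-Aa had a bound of at least 2.25-fold with an adjusted p of 0.108, and H2-Eb1 differed by 0.68 ± 0.22 (0.105). H2-Ab1 differed by 0.64 ± 0.36 (0.324), Cd74 by 0.44 ± 0.20 (0.221) and H2-D1 by 0.24 ± 0.16 (0.412). All 1-week arrays lay above both birth arrays for 7 of the 10 genes, against 28.0% of all genes. In the scanner-file record, Ciita and H2-DMb1 were called again, against 8.38% of all genes, and H2-DMa was lower at 1 week by limma (-0.74 ± 0.20, adjusted p = 0.0497), where 6.88% of all genes were called lower. With normexp correction the call passed to H2-Eb1 alone (0.65, adjusted p = 0.0362). Without array B, or without the second KI birth array, Ciita alone was called.

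**Figure D3:**
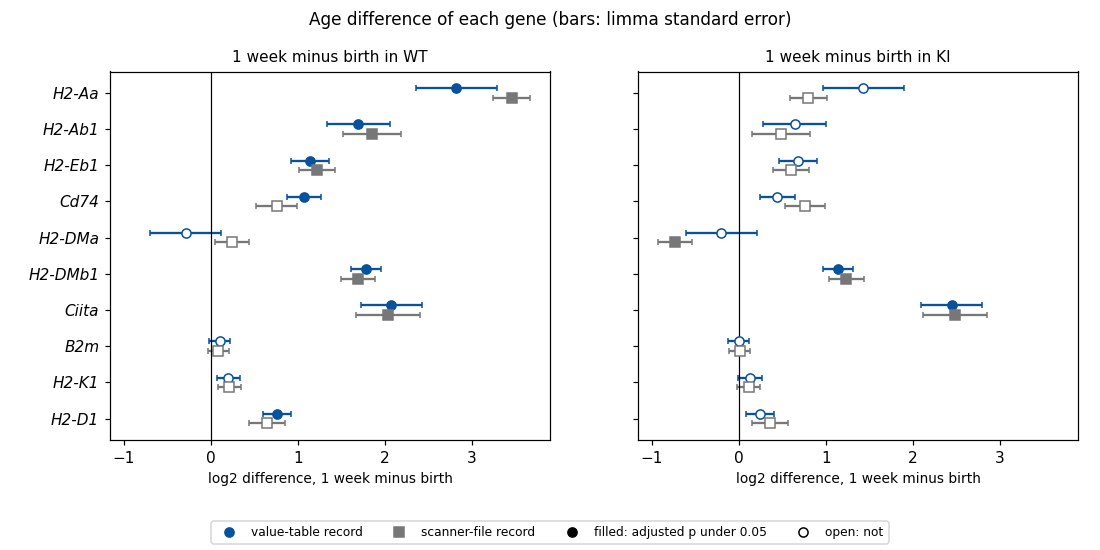
Difference between 1 week and birth for each gene in WT (left) and KI (right), on the log2 scale with the limma standard error. Circles use the value-table record and squares the scanner-file record, and filled symbols have an adjusted p under 0.05. In WT, 7 circles and 5 squares are filled, and in KI 2 circles and 3 squares, of which the square of H2-DMa lies below 0. For H2-Aa and Ciita the fitted differences are drawn, although their birth levels are bounds.

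Whether the age difference was smaller in KI than in WT was tested as age by genotype, and none of the 10 genes passed, where 0.00635% of all genes (1 gene) did. The value was positive, meaning a larger difference in KI, for 2 of the 10 genes (H2-DMa and Ciita) and for 53.5% of all genes. 1 of the 10 genes, H2-DMb1, had an unadjusted limma p under 0.05, as did 4.85% of all genes. The age by genotype value was -0.64 ± 0.24 for H2-DMb1 (adjusted p = 0.89), -1.06 ± 0.51 for H2-Ab1 (0.89), -0.63 ± 0.28 for Cd74 (0.89) and -0.52 ± 0.23 for H2-D1 (0.89). In the scanner-file record none of the 10 genes passed either, and 3 had an unadjusted limma p under 0.05, as did 991 of all 15757 genes. They were H2-Aa, H2-Ab1 (-1.37 ± 0.47) and H2-DMa, which turned to -0.98 ± 0.28 (limma adjusted p of 0.28, 0.78 and 0.77). H2-DMb1 was at -0.46 ± 0.28 there, H2-D1 at -0.29 ± 0.30 and Cd74 at 0.00 ± 0.33. For H2-Aa, not well above background on any birth array, the fitted value ran from -2.66 to -0.15 over the alternatives and gives no size. The comparison of ages within each genotype and this difference share the same 8 arrays.

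Between genotypes at birth, no class II or class I gene passed the test. None of the 10 genes had an adjusted p under 0.05 by limma, as in all but 6 of the genes tested (0.0381%), and 3 had an unadjusted p under 0.05 (H2-Aa, H2-Ab1 and Ciita), against 4.71% of all genes. H2-Aa and Ciita were not well above background in either genotype at birth, so H2-Ab1 is the only measured gene among these 3. With 2 arrays against 2, an exact two-sided permutation test cannot go below 0.333. Both KI arrays lay above both WT arrays for H2-Aa, H2-Ab1, H2-Eb1, H2-DMb1 and H2-K1, 5 of the 10, against 16.7% of all genes. Both lay below for Ciita, against 15.2%. The second H2-K1 probe overlapped, with KI at 1.76 and 1.99 and WT at 1.61 and 1.95. The difference was positive for 9 of the 10 genes, against 50.5% of all genes, and the class II median was 0.35.

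For H2-Ab1 the difference at birth was 0.97 ± 0.36 (limma adjusted p = 0.92), and its other probes gave 0.99, 0.67 and 0.82. The second KI array, at -0.26, stood above the first, at -1.19. For H2-Eb1 it was 0.43 ± 0.22 and for H2-DMb1 0.35 ± 0.17 (limma adjusted p above 0.9 for both). Cd74 differed by 0.23 ± 0.20 and overlapped, and H2-DMa differed by 0.03 ± 0.41. H2-Aa signals were higher in KI by 1.55 ± 0.47 (adjusted p = 0.73; 0.13 with normexp) and Ciita signals differed by -0.97 ± 0.35 (0.90), and no fold is given for either. The second, equally dim Ciita probe had the opposite sign, 0.65. The class I differences were 0.09 ± 0.13 for B2m, 0.16 ± 0.13 for H2-K1 (0.09 by its second probe) and 0.14 ± 0.16 for H2-D1.

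At 1 week none of the 10 genes passed the test between genotypes by limma in the value-table record (8 genes in all, 0.0508%), and 1 had an unadjusted p under 0.05, against 7.06% of all genes. It was H2-D1, which was at -0.39 ± 0.16 (adjusted p = 0.69). The class II median was -0.09. H2-Ab1 differed by -0.09 ± 0.36, H2-Eb1 by -0.02 ± 0.22, H2-DMb1 by -0.29 ± 0.17, B2m by -0.02 ± 0.13 and H2-K1 by 0.09 ± 0.13. Both KI arrays lay below both WT arrays for Cd74 (-0.39 ± 0.20), Ciita (-0.60 ± 0.35) and H2-D1, 3 of the 10, against 18.0% of all genes, and above for H2-K1, against 19.8%. The second H2-K1 probe ran the other way, at -0.16, with both KI arrays below both WT arrays.

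The record of the 1-week arrays changed which genes stood apart. By the scanner files none of the 10 genes was called either (1 gene in all, 0.00635%), but H2-Aa was at -1.11 ± 0.21 (limma adjusted p = 0.396) and H2-DMa at -0.95 ± 0.20 (0.396). By the value table the same genes were at 0.16 ± 0.47 and 0.11 ± 0.41. Cd74 turned from -0.39 to 0.24 ± 0.23. H2-Aa and H2-DMa had in common that arrays A and B were higher than C and D, and Cd74 that A and D were higher than B and C. Arrays A and B also held slide columns 1 and 2 and C and D columns 3 and 4, so scanner-file genotype and slide column cannot be told apart here.

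**Figure D4:**
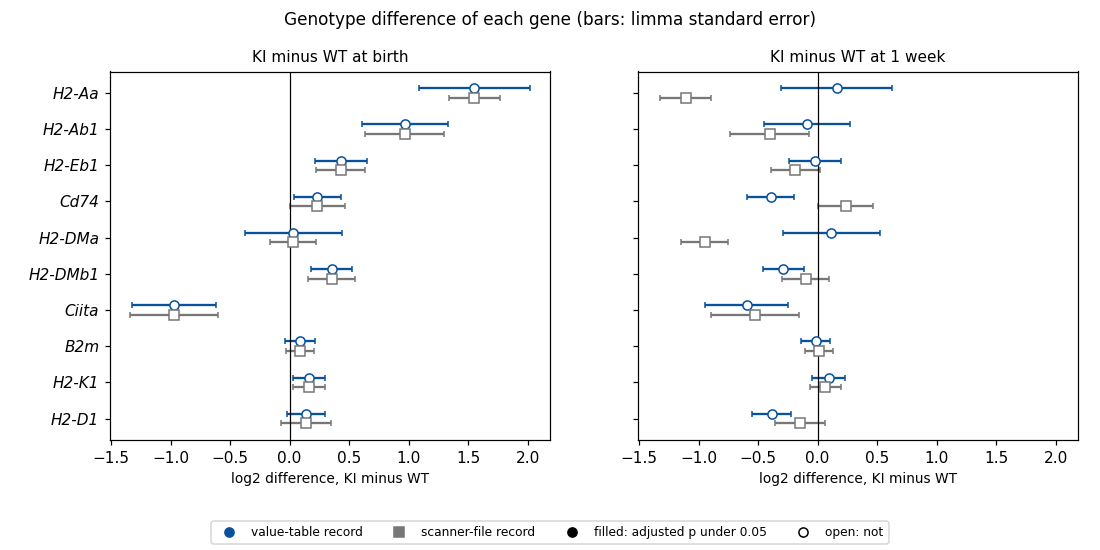
Difference between KI and WT for each gene at birth (left) and at 1 week (right), on the log2 scale with the limma standard error. Circles use the value-table record and squares the scanner-file record, and all symbols are open because no adjusted p was under 0.05. At birth the records share their arrays and differ in the error alone, and at 1 week the records part most for H2-Aa (0.16 and -1.11) and H2-DMa (0.11 and -0.95).

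The class I peptide supply genes moved in part with age. In WT, 4 of the 12 tested members of that list were called higher and none lower. Of all 15744 genes, 1577 were called higher in WT and 19.0% in either direction. Psmb9, a subunit of the immunoproteasome, was at -1.57 and -1.33 on the WT birth arrays, -1.09 and -1.27 on the KI birth arrays and between -0.23 and -0.15 on all 4 arrays at 1 week. It rose by 1.23 ± 0.14 in WT (limma adjusted p = 0.0025) and by 1.0 ± 0.14 in KI (0.0062). Psmb8, a further immunoproteasome subunit, rose by 1.14 ± 0.13 in WT (0.0027) and 0.79 ± 0.13 in KI (0.0126). The transporter genes Tap1 (0.69 ± 0.16, adjusted p = 0.0283) and Tap2 (0.73 ± 0.18, 0.0347) rose in WT, and in KI Tap1 differed by 0.09 ± 0.16 (0.80). In KI, 2 of the 12 were called higher, against 5.86% of all genes. In the scanner-file record Tap1 was not called in WT (0.58 ± 0.16, adjusted p = 0.0652).

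In WT 1577 of all 15744 genes were called higher (19.0% in either direction). Of the other class II processing genes, 1 of 7 tested was called higher in WT. None was called higher in KI by limma, where 1 had an unadjusted p under 0.05, against 25.6% of all genes. H2-Ob, a subunit of the H2-DO protein that restrains H2-DM, was not well above background at birth and at least 1.63-fold higher in WT at 1 week (limma adjusted p = 0.0367). It was tested only because of its signal in WT at 1 week, so its call is not independent of the filter. The bound is on the scale of the processed signal. Ctss, the protease cathepsin S that trims the invariant chain, was at 2.02 and 1.99 on the WT birth arrays, 2.10 and 2.20 on the KI birth arrays and 1.99, 1.56, 1.36 and 1.43 on A to D. Its difference was -0.30 ± 0.20 in WT (adjusted p = 0.31) and -0.69 ± 0.20 in KI (0.0742), and in the scanner-file record it was lower in KI by limma (-0.76 ± 0.16, 0.0254). The 1-week arrays of Ctss lay below the birth arrays, but array A (1.988) and the second WT birth array (1.991) were nearly equal. Its differences had the opposite sign to those of the class II chains, and in the value-table record neither passed the test.

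Among the non-classical class I genes, 3 of 10 were called higher and 1 lower in WT, beside the 19.0% of all genes called in either direction. In KI 1 was called lower, where 4.75% of all genes were called lower. Cd1d1, which presents lipids to natural killer T cells, fell by 1.03 in WT (limma -1.03 ± 0.13, adjusted p = 0.0039) and by 0.98 in KI (-0.98 ± 0.13, 0.0058). Mr1, which presents vitamin metabolites (1.06 ± 0.24, 0.0263), H2-M3 (0.76 ± 0.16, 0.0202) and H2-Q7 (0.74 ± 0.17, 0.0251) rose in WT. In the scanner-file record none of the 10 was called higher in WT by limma. There 7 had an unadjusted limma p under 0.05 in either direction, as did 4721 of all 15757 genes. In KI 2 were called higher in that record, where 8.38% of all genes were.

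Of 17 transcription factor and interferon-gamma signalling genes tested, 2 were called higher in WT, and 1 higher and 1 lower in KI. Of all 15744 genes, 1577 were called higher in WT (19.0% in either direction), and 5.86% higher and 4.75% lower in KI. Irf1, an interferon-induced factor that acts on class I promoters and on Ciita, was at 0.62 and 0.84 on the WT birth arrays, 0.83 and 0.86 on the KI birth arrays and between 1.81 and 2.13 at 1 week. It rose by 1.24 ± 0.15 in WT (limma adjusted p = 0.0034) and by 1.09 ± 0.15 in KI (0.0064). Nlrc5, the class I counterpart of Ciita, was not well above background in WT at birth and at least 1.81-fold higher in WT at 1 week (0.0429). Of 5 co-stimulation genes, Cd86 and Cd40 rose in WT (1.46 ± 0.17, adjusted p = 0.0031, and 0.82 ± 0.16, 0.0150) and in KI (1.22 ± 0.17, 0.0073, and 0.65 ± 0.16, 0.0460). In both genotype comparisons no gene of these 5 lists was called by limma in the value-table record. An unadjusted limma p under 0.05 was found at birth for 2 of 12 peptide supply genes and 1 of 17 signalling genes, against 4.71% of all genes. At 1 week it was found for none of either list, against 7.06% of all genes. In the scanner-file record it was found at 1 week for 1 of the 12 and 4 of the 17, and for 1556 of all 15757 genes.

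Markers of cells that carry class II moved with age too. Of 7 B cell markers tested, 4 were called higher in WT at 1 week, and none in KI by limma (1 with an unadjusted p under 0.05). Of all 15744 genes, 1577 were called higher in WT (19.0% in either direction and 8.96% lower). In KI 5.86% were called higher and 4.75% lower, and the marker counts below stand beside the same shares. An unadjusted limma p under 0.05 in KI was found for 25.6% of all genes. The summed signal of the list was 1.06 to 1.35 in WT at birth, 1.37 to 1.56 in KI at birth, 2.31 to 2.70 in WT at 1 week and 1.69 to 1.86 in KI at 1 week, in units of the array's 75th percentile. These sums, and those of the lists below, are grouped by the value table. By the scanner files the B cell sums at 1 week overlapped, at 1.86 to 2.31 in WT and 1.69 to 2.70 in KI. Blk and Fcrla were not well above background on any array.

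Of 13 macrophage and monocyte markers, 6 were called higher and 1 lower in WT, and 4 higher and 1 lower in KI. Their summed signal was 26.1 to 29.8 in WT at birth, 25.4 to 31.9 in KI at birth, 46.9 to 47.0 in WT at 1 week and 36.4 to 38.9 in KI at 1 week. By the scanner files the sums at 1 week overlapped, at 38.9 to 47.0 in WT and 36.4 to 46.9 in KI. The Ly6c2 probe was the largest part of this sum, at 3.65 to 4.13 at birth and 4.33 to 4.79 at 1 week. The list median was -0.25 to -0.06 in WT and -0.13 to 0.04 in KI at birth. At 1 week it was -0.26 to 0.35 in WT and -0.24 to 0.03 in KI by the value table, and 0.03 to 0.35 and -0.26 to -0.24 by the scanner files. Csf1r rose in WT (1.09 ± 0.14, limma adjusted p = 0.0040) and KI (0.59 ± 0.14, 0.0418), and Lyve1 fell in both (-1.49 ± 0.15, 0.0018, and -0.88 ± 0.15, 0.0126). All 14 macrophage markers with a probe were well above background on at least 1 array.

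Of 6 dendritic cell markers tested, 4 were called higher in WT and 1 in KI. The summed signal of this list is nearly all that of the Siglech probe and is not given. Xcr1 and Irf4 were not well above background on any array. Of 6 T and NK cell markers tested, 3 were called higher in WT and 1 in KI, with summed signals of 1.98 to 2.09, 1.95 to 2.61, 2.77 to 2.80 and 2.33 in WT and KI at birth and WT and KI at 1 week. By the scanner files these sums at 1 week overlapped, at 2.33 to 2.77 in WT and 2.33 to 2.80 in KI. Cd3g, Cd8a and Ncr1 were not well above background on any array, nor were Rag1, Rag2, Ptcra and Themis of the thymocyte list.

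Other cell types moved too. Of 8 neutrophil markers, 5 were called lower in WT and 5 in KI, and of 6 endothelial markers 3 were called higher in WT and 1 in KI. The neutrophil marker Ngp was well above background on the 4 birth arrays alone, and entered the tests only through that signal. Of 7 adipocyte markers 1 was called higher in WT and none in KI by limma (4 with an unadjusted p under 0.05). All 7 were well above background on arrays B, C and D, and 3 on array A and on each birth array. Adipoq, Ucp1, Plin1 and Cfd were thus tested only because of their 1-week signal. The adipocyte counts are therefore not independent of the filter. Adipoq, a fat cell hormone gene, was at -6.72 on A, -2.93 on B, -2.67 on C and -1.05 on D. Array A, without measured Adipoq, had a class II sum of 3.14, and whether fat tissue had a part in the class II signal was not tested.

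The summed class II signal and the sums of these markers did not rank the arrays at 1 week alike. The summed class II signal was 1.31 to 1.34 in WT at birth, 1.82 to 1.99 in KI at birth, and 3.14, 3.41, 2.48 and 3.25 on A to D. It was highest on array B, whereas the B cell and macrophage sums were higher on A and D than on B. Not every class II gene followed the class II sum, as Cd74 was at -0.67 on A, -0.30 on D and -0.93 on B. The macrophage list median was 0.35 on A, 0.03 on B and -0.26 on D, unlike its sum. In the scanner-file record the age comparison in WT called 1 of 7 B cell, 5 of 13 macrophage (and 1 lower) and none of 6 dendritic cell markers higher, against 6.98% of all genes. Of the dendritic cell markers 4 had an unadjusted limma p under 0.05, as did 4721 of all 15757 genes. The part of these markers' cells in the class II rise was not tested.

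**Figure D5:**
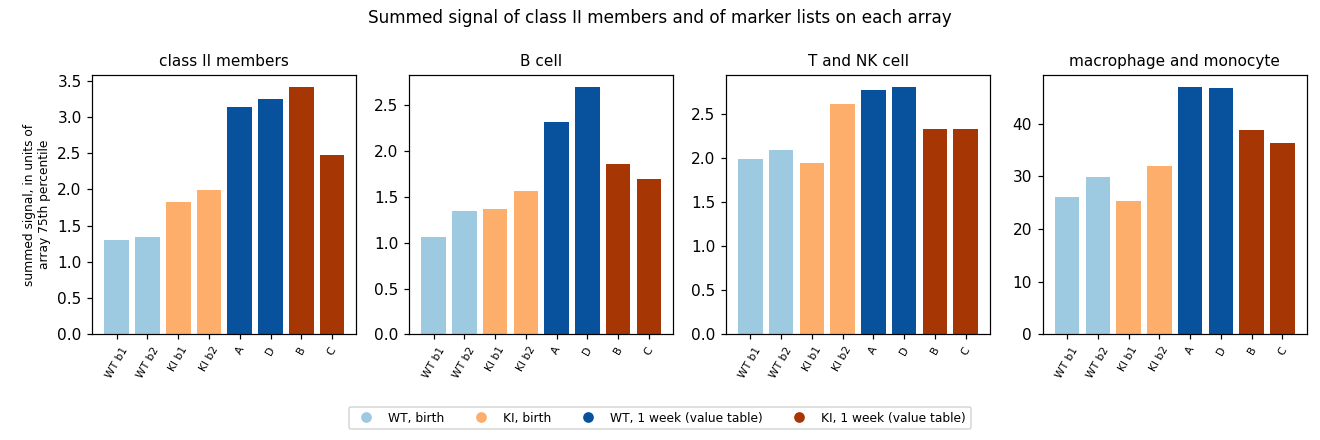
Summed signal of the 7 class II genes and of 3 marker lists on each array, in units of the array's 75th percentile of signal, with bars from 0. Bars are single arrays, coloured by group in the value-table record. The class II sum is highest on array B (3.41), and the B cell sum on array D (2.70). In the macrophage sum the Ly6c2 probe is the largest part.

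The genes whose profile over the 8 arrays was most like the mean class II profile were found by the root mean square difference after each gene was centred on its own mean. They were Cdh23 (0.13), Prrx1 (0.14), Cryba4 (0.14), Tmod4 (0.15) and Gbp5 (0.15). The class II genes themselves lay between 0.20 for H2-DMb1 and 0.79 for H2-DMa from their mean profile, with H2-Eb1 at 0.26, H2-Ab1 at 0.31, Cd74 at 0.36, H2-Aa at 0.70 and Ciita at 0.75. The mean profile was 0.82 on arrays A and B, 0.22 on C and 0.55 on D, and at birth -0.81 and -0.77 in WT and -0.49 and -0.34 in KI. Gbp5, an interferon-induced guanylate-binding protein gene, was at -2.84 and -2.73 on the WT birth arrays, -2.55 and -2.50 on the KI birth arrays and -1.62, -1.44, -1.93 and -1.39 on A to D.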

How the data were processed

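The deposited scanner files held, per spot, a processed linear intensity, background-corrected by the authors' Agilent software and not normalized across arrays. Per the file headers the software was Feature Extraction 11.0.1.1 and the design's genome build mm9, and per the submitters' processing notes version 9.1. The deposited flags (other) were coded 0 and 1 per the file headers, and median spot and background intensities of the deposited files served an alternative. Value-table columns were matched to scanner files over the 56305 single-spot probes (relative tolerance 0.0001).

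Levels are log2 signal minus the 75th percentile of non-control probes on that array. Symbols came from RefSeq accessions (32988 of 56590 probes). Each gene was represented by its brightest probe and tested where both arrays of any group were well above background (15744 genes, or 15757 in the scanner-file record). The model, limma 3.58.1 with a mean for each group over all 8 arrays, ran in R 4.3.3 (4 residual degrees of freedom), with Benjamini-Hochberg adjustment over all genes and a threshold of 0.05. The normexp alternative used median spot signal with an offset of 50. The fit was tested on simulated data.

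Named genes were all 10 members, up to 4 called genes of each pathway list, smallest p first and filled to 2, and the 5 genes most like the class II profile, plus markers named after their values were seen. The members and lists were chosen with earlier results of these data known. Alternatives covered background, normalization, filters, probe choice, the record of the 1-week arrays, the replicate block and each array left out. Values of some listed genes are not reported here.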

Additional observations from a re-analysis of the deposited data

How the results depend on the processing

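Over 20 alternatives (19 planned), 1168 values of single genes were compared with the main ones: 1137 kept their side of the threshold, 1082 of them with the same sign, 26 lost the call, 5 gained it and none with a call reversed. The other 55, without a call in either fit, had the other sign, 24 of them between genotypes at 1 week. For the genotype comparisons and age by genotype, 0 of the 10 genes were called in the main fit and in every alternative run. In WT, 7 genes were called between birth and 1 week, and 3 to 7 with an array left out; the count was 5 in the scanner-file record, with the filter on all 8 arrays (which drops H2-Aa and Ciita) and with only the arrays compared, and 6 with normexp. In KI, 2 were called, and 1 to 2 with an array left out, 1 with normexp background, 1 with the filter on all 8 arrays and 4 with the replicate number as a block, which added H2-Aa (adjusted p = 0.045) and H2-Eb1 (0.0467). Averaged over genotypes the count was 7, and 5 to 8 with an array left out; the block kept it at 7. The block changed no other count in the value-table record; in the scanner-file record with the block, 5 genes in WT and 2 in KI were called. Same-numbered arrays deviated together with correlations from -0.14 to 0.29 over the 6 pairs of groups, not all over 0.1, so the arrays are taken to share only a number. Dimness limits H2-Aa and Ciita, whose birth levels are bounds and which were tested through their 1-week signal alone.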
